A study of Sus scrofa with 24 samples.

Results

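The genes described here are the complement and coagulation genes of pig subcutaneous fat, a list of 48 symbols that spans both plasma cascades, their receptors and their inhibitors. A member was taken from the array when the deposited gene name of a probe, or the symbol of its RefSeq identifier, was on the list, and each gene stands at its brightest probe. By this rule 36 of the 48 genes were on the array, on 69 of its 43603 probes. For 29 of the 36 the brightest probe passed the filter on dim signal, which kept 28601 probes of the whole array. No probe was found by the rule for C1QB, C1QC, C1R, CFD, CFP, CFI, C3AR1, FGA, FGB, PROS1, A2M and PLAUR. For 7 of these 12 a probe carries the gene's name only in its deposited description, and those values are given apart.

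The study compared pigs of a low residual feed intake line fed ad libitum (RFIneg), pigs of a high residual feed intake line fed ad libitum (RFIpl), and pigs of the high line (RFIplR) given only as much feed as RFIneg pigs ate. The trait is the part of an animal's feed intake that its growth and body composition do not account for. Each group had 8 pigs, sampled at 115 kg body weight, with 1 array of Cy3-labelled RNA from subcutaneous adipose tissue for each pig. RFIneg and RFIpl differ in line, both fed ad libitum. RFIneg and RFIplR differ in line and in feeding regime (ad libitum against restricted), at a matched amount of feed. RFIplR and RFIpl are of the same line and differ in feeding. The tissue is a mixture of cells, and in such bulk samples fewer cells of a type and less RNA per cell cannot be told apart.

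Complement is a cascade of plasma proteins that marks microbes and debris for removal. C1q, C1r and C1s start its classical route, factor B and factor D its alternative route, and both meet at C3, after which C5 to C9 form a pore in the target membrane. Coagulation is a second cascade, started by tissue factor or by the contact system to which plasma kallikrein belongs, and it ends in thrombin, which turns fibrinogen into fibrin. Most of these proteins in plasma come from the liver, while fat cells are a known source of factor D (adipsin) and macrophages of C1q.

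Values are log2 signals relative to the 75th percentile of the same array, so 0 is that percentile and differences are on the log2 scale. The arrays fell into 17 bright ones, with a 75th percentile of signal between 414 and 663 intensity units, and 7 dim ones, between 69.4 and 94.4. The dim arrays were RFIneg 1 and 7, RFIpl 5 and 6, and RFIplR 2, 4 and 6, so brightness crossed the groups. All 7 were scanned on day 2, together with the bright arrays RFIpl 4, RFIpl 7 and RFIplR 8. On that day the RFIneg arrays were thus all dim, so brightness was not balanced between groups within scan day. Of the 29 kept members, 17 differed by more than 1 log2 unit between the bright and the dim arrays, as did 54.1% of all kept probes. All 8 adipocyte genes on the array were kept. Their mean ran from 5.51 over a median of 6.25 to 6.34 in RFIneg, from 5.17 over 5.49 to 6.31 in RFIpl, where RFIpl 3 was highest, and from 5.54 over 5.99 to 6.11 in RFIplR. For RFIneg minus RFIpl 7 of the 8 differences were above 0, with a median of 0.46, and 0 were called while 5 had an unadjusted p under 0.05 (6.86% over all kept probes). For RFIplR minus RFIpl 7 were above 0, with a median of 0.27, and 0 were called while 2 had such a p (8.19% over all kept probes). Over all kept probes 49.0% and 51.5% of the differences were above 0 in these comparisons. The part of fat cell content in the members' values was not tested. RFIpl 2 stood apart in skeletal muscle genes (mean of 8 genes 5.39, against a group median of -0.79) and RFIpl 7 and RFIpl 8 in keratinocyte genes (mean of 3 genes 2.81 and 1.37, against -2.91). The muscle genes MYH1 and MYH2 had identical values, so that reading counted 2 times in the mean of 8. RFIpl 3 was highest for liver genes (mean of 5 genes 1.19, against -1.47).

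The probes of the genes on which the results turn are 60 bases long. The TFPI and C4A probes are shown whole, and for KLKB1 the first 30 of the 44 bases that its 2 kept probes share, since those probes read nearly the same stretch and are not independent measurements.
TFPI: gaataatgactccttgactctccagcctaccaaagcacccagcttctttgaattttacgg
C4A: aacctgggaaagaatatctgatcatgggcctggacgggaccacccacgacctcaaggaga
KLKB1: ctttcagcatccagtaataatgctataatg
The KLKB1 probe is 35% G and C, the TFPI probe 45% and the C4A probe 55%. The array names C4A simply C4, and the probe was not compared with other C4 copies.

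Several members that the liver makes were at the edge of detection in this tissue. The 7 members whose brightest probe was not kept were C6, C8A and C8B of the membrane pore, the clotting factor F9, the fibrinogen chain FGG, the anticoagulant protease precursor PROC, and PLG, the precursor of plasmin. Each of them was well above background on 0 to 3 arrays of any group, and F9 and C8B on 0 arrays of all 3. In RFIpl 3, the array highest for liver genes, PLG reached -1.54, against a group median of -5.92. At the other end, 18 of the 36 members were well above background on all 24 arrays. C7, F2, F7 and KLKB1 passed the filter through 1 group only, so their group differences are conditioned on that group being high.

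**Figure D1:**
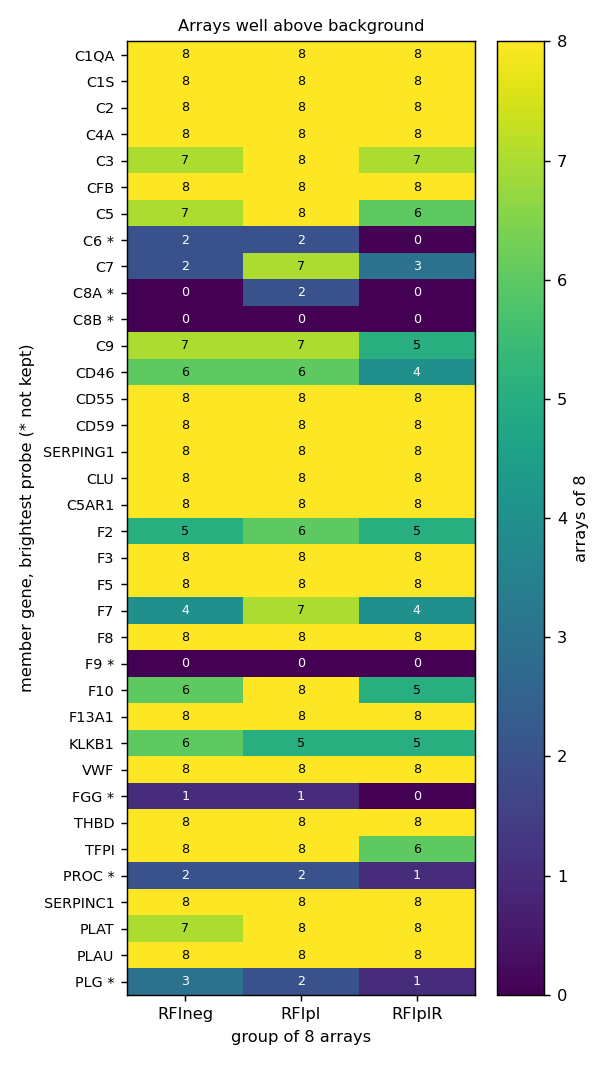
Number of arrays, of 8 per group (columns), on which the brightest probe of each of the 36 members on the array (rows, ordered by role) was well above background. An asterisk marks the 7 members that were not kept, which stay between 0 and 3 in every group.

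No member passed the threshold of an adjusted p of 0.05 in any of the 3 comparisons or in the test of any group difference. The fit called 59 of the 28601 kept probes between RFIneg and RFIpl (0.206%), 0 between RFIneg and RFIplR (0%), 85 between RFIplR and RFIpl (0.297%) and 80 for any group difference (0.28%), so at those rates 0 of 29 members lies near the background. At an unadjusted p under 0.05 there were 3 members between RFIneg and RFIpl (background 6.86%), 0 between RFIneg and RFIplR (2.12%), 4 between RFIplR and RFIpl (8.19%) and 2 for any group difference (6.85%). The median difference of the 29 members was -0.03 for RFIneg minus RFIpl, 0.01 for RFIneg minus RFIplR and -0.06 for RFIplR minus RFIpl, beside -0.01, -0.01 and 0.01 over all kept probes. No member's 8 arrays of a group lay wholly above or below those of another group (background 0.0245%, 0% and 0.154%). For RFIneg minus RFIpl the 95% interval of a member's difference reached 0.49 to 1.42 log2 units to either side, with a median of 0.80.

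With bright or dim added to the fit as a block, 6 members passed between RFIneg and RFIpl (20.7% of 29, background 6.63%), 0 between RFIneg and RFIplR (background 0%) and 6 between RFIplR and RFIpl (20.7%, background 10.4%). For any group difference 7 members passed (background 9.03%). At an unadjusted p under 0.05 the block gave 10 members (background 22.8%), 0 (9.49%) and 12 (25.7%) in that order, and the background for any group difference was 25.8%. KLKB1, F5 and C4A were in both lists of 6. CD59, VWF and F2 passed in the first list, and TFPI, F3 and SERPINC1 in the second. Both lists set a group against the same 8 RFIpl arrays, so they are not independent of each other. KLKB1 and F2 were kept through 1 group only, so their calls are conditioned on that group being high. Each member stands at its brightest probe, while the background counts all kept probes. Without a block 0.206% of all kept probes passed between RFIneg and RFIpl. Among probes well above background on all 24 arrays it was 0.513%. Whether the members exceed the background was not tested. Within the bright arrays alone, KLKB1 passed between RFIneg and RFIpl (background 1.04%), and KLKB1 and TFPI passed between RFIplR and RFIpl (3.34%), 0 between RFIneg and RFIplR (0%), and KLKB1 for any group difference (1.7%). The bright arrays of 2 groups were wholly apart for 0 members (background 0.913%, 0.542% and 3.07% for RFIneg with RFIpl, RFIneg with RFIplR and RFIplR with RFIpl).

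**Figure D2:**
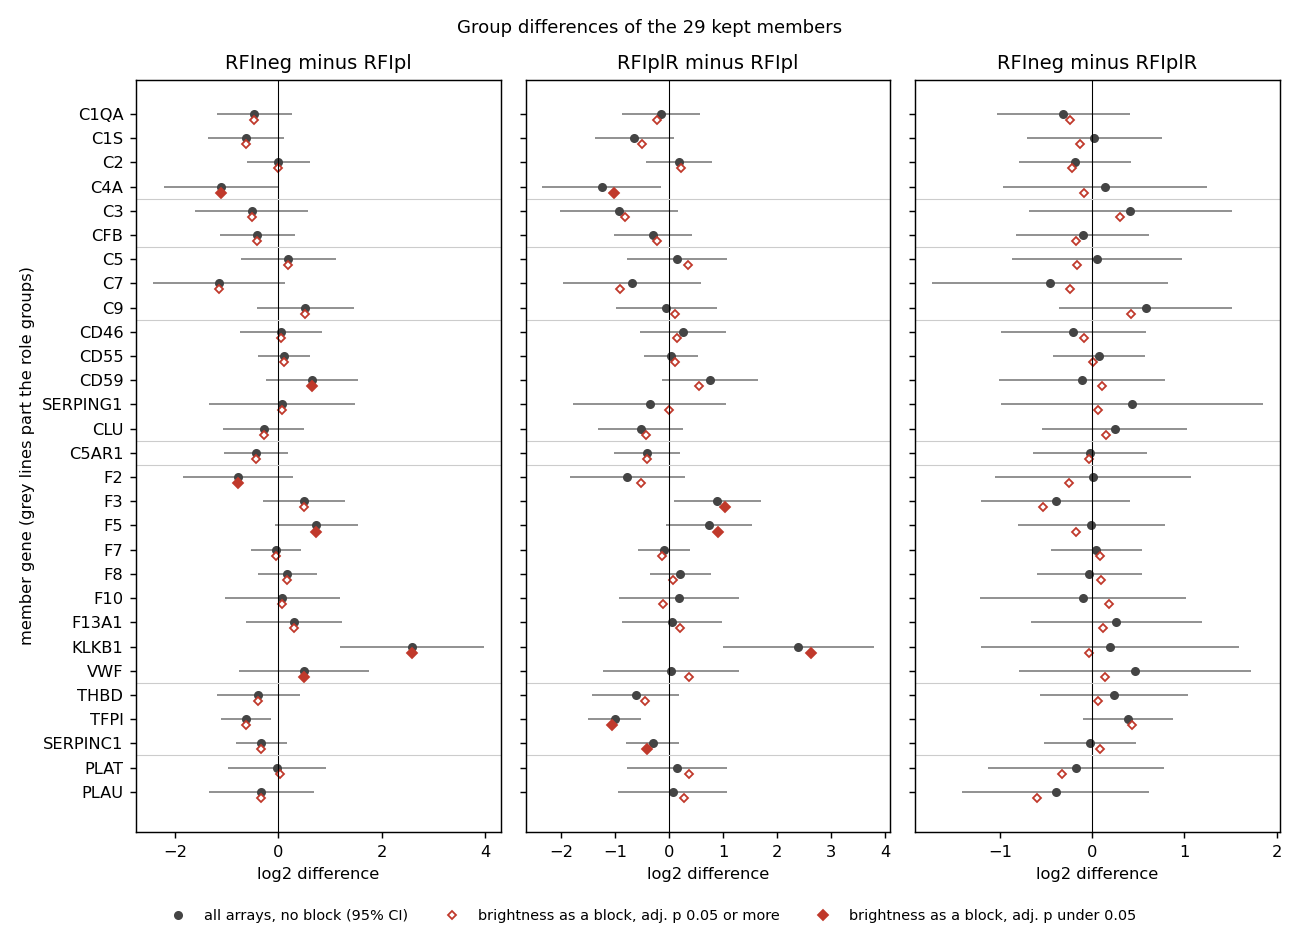
Differences between groups on the log2 scale (x axis) for the 29 kept members (rows, in role order), 1 panel per comparison. Dark points are the fit without a block with 95% confidence intervals, and diamonds the fit with brightness as a block, filled where the adjusted p was under 0.05: 6 members in the first panel, 6 in the second and 0 in the third.

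Among the coagulation factors, KLKB1 had the largest difference. KLKB1 encodes plasma prekallikrein, the precursor of the protease that cleaves kininogen to bradykinin and activates factor XII. In RFIneg its signal ran from -4.56 over a median of -1.42 to -0.43. In RFIpl it ran from -6.85 over -4.84 to -1.53, and in RFIplR from -3.68 over -1.94 to -0.66. The RFIpl arrays were low with the exception of RFIpl 3, and the 2 lowest RFIneg arrays were the dim ones, so the groups overlapped. Mean signals were -1.91 ± 1.54 in RFIneg, -4.50 ± 1.64 in RFIpl and -2.11 ± 0.99 in RFIplR (SD, n = 8 each). RFIneg exceeded RFIpl by 2.59 (SE 0.68) at an adjusted p of 0.134, and RFIplR exceeded RFIpl by 2.39 (SE 0.68) at an adjusted p of 0.141. The probe was kept only because 6 RFIneg arrays were well above background, so these differences and every call below are conditioned on RFIneg being high. In RFIpl 3 of 8 arrays (RFIpl 5, 6 and 7) were not well above background, so no fold is given. The difference of 0.20 between RFIneg and RFIplR was within its standard error of 0.68.

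For KLKB1 the call depended on the block and on a single array. With brightness as a block its differences from RFIpl were 2.59 (SE 0.53, adjusted p = 0.00665) for RFIneg and 2.62 (SE 0.53, adjusted p = 0.00393) for RFIplR. Within the bright arrays they were 3.16 (adjusted p = 0.0428) and 2.75 (adjusted p = 0.0357), and within the dim arrays 0.87 (adjusted p = 0.605) and 2.10 (adjusted p = 0.161). Without RFIpl 3 they were 3.01 (adjusted p = 0.0158) and 2.81 (adjusted p = 0.0266) in the fit with no block. Scan day as a block gave 2.07 (adjusted p = 0.0938) and 2.39 (adjusted p = 0.0237). Normexp background correction gave 1.21 (adjusted p = 0.238) and 1.26 (adjusted p = 0.144). Signal was well above background on 5 of 8 arrays in each high-line group. On the dim arrays (RFIneg 1 and 7, RFIpl 5 and 6, RFIplR 2, 4 and 6) the KLKB1 probe was never well above background. The dim-array differences thus compare signal near background, and the fit with brightness as a block includes those arrays. The overlapping second probe differed by 2.47 (SE 0.59, adjusted p = 0.089) and 1.83 (SE 0.59, adjusted p = 0.232). Another probe of the gene, from another stretch and not kept, gave such signal on 4 arrays of RFIneg, 0 of RFIpl and 2 of RFIplR.

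Markers of liver and of neutrophils were set beside KLKB1. Of the 8 liver genes listed, 5 were on the array and kept, and their mean ranged from -1.71 to -0.55 in RFIneg, from -1.96 to 1.19 in RFIpl and from -1.72 to -0.82 in RFIplR, with medians of -1.30, -1.47 and -1.15 and 0 genes called in any comparison. At an unadjusted p under 0.05 there were 2 for RFIneg minus RFIpl, 0 for RFIneg minus RFIplR and 1 for RFIplR minus RFIpl. The shares over all kept probes were 6.86%, 2.12% and 8.19% in that order. Of the 5 liver differences, 2 were above 0 for RFIneg minus RFIpl and 1 for RFIplR minus RFIpl. ALB, the gene of plasma albumin, had medians of -2.84, -3.61 and -3.78 in RFIneg, RFIpl and RFIplR and stood at 1.30 in RFIpl 3. Of 5 neutrophil genes 3 were on the array and kept, with a mean of 0.52 to 1.58 in RFIneg, -1.85 to 0.63 in RFIpl and -0.95 to 1.59 in RFIplR. The highest RFIpl value of that list was again RFIpl 3. Of those genes S100A8 rose in RFIneg against RFIpl by 2.18 (adjusted p = 0.045), and S100A12 rose by 1.90 in RFIneg (adjusted p = 0.0422) and by 1.80 in RFIplR (adjusted p = 0.0478). Of all kept probes 0.206% were called for RFIneg minus RFIpl and 0.297% for RFIplR minus RFIpl. The part of liver cells and neutrophils in the KLKB1 values was not tested.

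F5 and F3 were the next coagulation factors by p. F5 encodes factor V, the cofactor that factor Xa needs to make thrombin. Its signal ran from -0.18 over a median of 1.43 to 1.93 in RFIneg, from -0.57 over 0.67 to 1.66 in RFIpl, and from -0.31 over 1.39 to 2.42 in RFIplR. All groups overlapped, and the lowest arrays of each were dim ones. RFIneg exceeded RFIpl by 0.73 (SE 0.39, adjusted p = 0.826) and RFIplR exceeded RFIpl by 0.74 (SE 0.39, adjusted p = 0.690). With brightness as a block these were 0.73 (SE 0.22, adjusted p = 0.048) and 0.91 (SE 0.22, adjusted p = 0.013). Leaving out the muscle-rich RFIpl 2 from the block fit gave 0.59 (adjusted p = 0.0887) and 0.77 (adjusted p = 0.0193), and brightness and slide as blocks gave 0.76 (adjusted p = 0.0893) and 0.91 (adjusted p = 0.0294).

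F3 encodes tissue factor, the membrane receptor of factor VII that starts coagulation. It ran from 0.99 over a median of 2.36 to 2.99 in RFIneg, from 0.32 over 1.86 to 2.88 in RFIpl, and from 0.998 over 2.80 to 3.29 in RFIplR. RFIplR thus had the highest median, and its bright arrays (2.58 to 3.29) overlapped those of RFIpl (1.07 to 2.88). RFIplR exceeded RFIpl by 0.89 (SE 0.39, adjusted p = 0.512), and by 1.03 with brightness as a block (SE 0.29, adjusted p = 0.0278). That call was lost within the bright arrays (0.98, adjusted p = 0.0826) and in the block fit without RFIpl 1 and 2 (1.02, adjusted p = 0.0628) or RFIpl 7 and 8 (0.94, adjusted p = 0.072). The second F3 probe differed by 0.99 in the fit without a block (SE 0.26, adjusted p = 0.102). RFIneg was 0.40 below RFIplR (SE 0.39, adjusted p = 0.999).

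Of 10 coagulation factors listed, all were on the array and 9 were kept. Of these 9, 7 had a difference above 0 for RFIneg minus RFIpl (49.0% over all kept probes) and 7 for RFIplR minus RFIpl (51.5%). VWF, the endothelial protein that carries factor VIII and tethers platelets, was the brightest of them on this array. It ran from 1.71 over a median of 4.28 to 4.74 in RFIneg, from 1.204 over 3.68 to 4.27 in RFIpl, and from 1.57 over 4.02 to 4.55 in RFIplR, with the dim arrays lowest in each group. VWF was 2.58 higher on the bright than on the dim arrays. RFIneg exceeded RFIpl by 0.50 in both fits, with an SE of 0.61 without the block and of 0.12 with it (adjusted p = 0.0186). With scan day as the block instead it was 0.0059 (adjusted p = 0.996), and with brightness and slide 0.51 (adjusted p = 0.0701). On scan day 2 the RFIneg arrays were all dim, while RFIpl 4 and 7 were bright. The scan-day value thus includes a brightness difference between these groups. F2, the gene of prothrombin, was 0.77 lower in RFIneg than in RFIpl (SE 0.52), and with the brightness block its SE was 0.22 (adjusted p = 0.0339). Without RFIpl 2 in that fit the F2 difference was -0.77 (adjusted p = 0.0537), and with brightness and slide as blocks -0.75 (adjusted p = 0.118). The F2 probe was kept only because 6 RFIpl arrays were well above background, against 5 in each other group. Its differences and its call are therefore conditioned on RFIpl being high. On the dim arrays the F2 probe was never well above background, and the fit with the brightness block includes those arrays. The remaining factors F7, F8, F10 and F13A1 differed between any pair of groups by at most 0.31, and none passed in either fit.

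**Figure D3:**
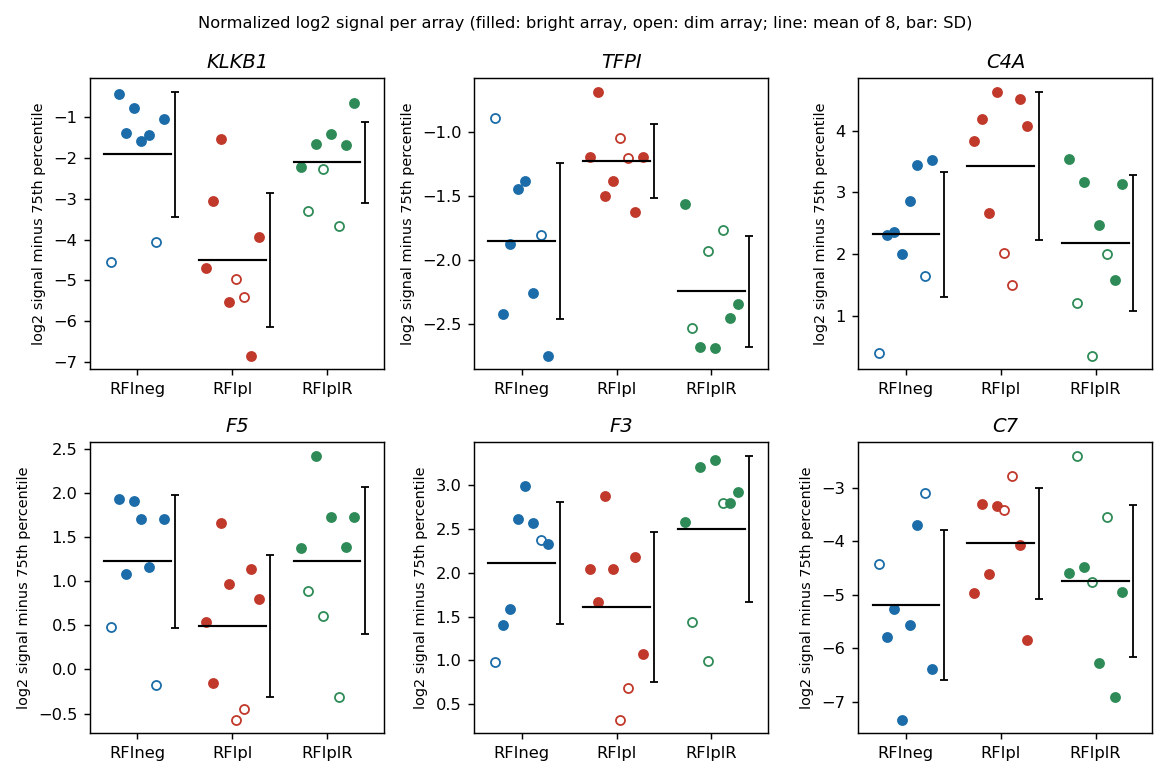
Normalized log2 signal (y axis) of KLKB1, TFPI, C4A, F5, F3 and C7 on each of the 24 arrays by group (x axis). Filled points are bright arrays, open points dim arrays, the line is the mean of 8 and the bar the SD. For KLKB1, RFIpl 3 at -1.53 is the highest of the RFIpl arrays, and for TFPI RFIpl and RFIplR meet only at -1.62 and -1.57.

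Among the anticoagulants and protease inhibitors, TFPI came closest to the threshold without a block. TFPI encodes tissue factor pathway inhibitor, which blocks tissue factor with factor VII and factor Xa. It ran from -2.75 over a median of -1.84 to -0.89 in RFIneg, from -1.62 over -1.20 to -0.68 in RFIpl, and from -2.69 over -2.40 to -1.57 in RFIplR. The RFIpl and RFIplR arrays touched at 1 array, RFIplR 1, and the RFIneg arrays spread over both. RFIplR was 1.02 below RFIpl (difference -1.02, SE 0.24, adjusted p = 0.057). RFIneg minus RFIpl was -0.62 (SE 0.24, adjusted p = 0.479) and RFIneg minus RFIplR 0.39 (SE 0.24, adjusted p = 0.999). All 8 arrays of RFIneg and of RFIpl had signal well above background for TFPI, and 6 of RFIplR (not RFIplR 2 and 6), so no fold is given.

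For TFPI neither the size of the RFIplR minus RFIpl difference nor its call held in all fits. The difference was -1.06 with brightness as a block (SE 0.21, adjusted p = 0.00378), -1.08 within the bright arrays (adjusted p = 0.036) and -0.95 within the dim arrays (adjusted p = 0.242). Leaving out RFIneg 1, RFIneg 8 or RFIpl 3 brought the adjusted p to 0.0473, 0.0473 and 0.0376. Normexp background correction brought the difference to -0.15 (adjusted p = 0.755). TFPI is also made by endothelium, whose list of 6 kept genes had medians of 2.28, 2.11 and 2.23 in RFIneg, RFIpl and RFIplR. Of those 6 genes 0 were called, and 1 had an unadjusted p under 0.05, for RFIplR minus RFIpl (8.19% over all kept probes).

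THBD and SERPINC1 were the other kept members of that group, and all 3 had differences below 0 against RFIpl in both comparisons. THBD, the brightest of them, encodes thrombomodulin, the endothelial receptor that turns thrombin towards activating protein C. It ran from 0.60 over a median of 1.76 to 2.22 in RFIneg, from 0.86 over 2.30 to 2.91 in RFIpl, and from -0.49 over 1.54 to 2.44 in RFIplR, and its largest difference was -0.62 (SE 0.39, adjusted p = 0.843) for RFIplR minus RFIpl. A2M, a broad protease inhibitor named only by description, ran from -3.52 over -1.33 to 1.42 in RFIneg, from -3.67 over -2.46 to 1.04 in RFIpl, and from -2.79 over -0.83 to 0.35 in RFIplR. It differed from RFIpl by 1.13 in RFIneg and by 1.36 in RFIplR (SE 0.68 each, adjusted p = 0.941 and 0.642), with the groups overlapping. SERPINC1 encodes antithrombin, a liver-made inhibitor of thrombin and factor Xa. Its brightest probe averaged -0.97 and was well above background on all 8 arrays of each group. The gene's other 2 probes averaged -5.88 and -5.89 and were not kept. They were well above background on 0 to 2 arrays of any group, so the values below rest on 1 probe. RFIplR minus RFIpl for SERPINC1 was -0.31 (SE 0.24, adjusted p = 0.974), and -0.42 with brightness as a block (SE 0.12, adjusted p = 0.0257), -0.50 within the bright arrays (adjusted p = 0.066) and -0.07 with normexp (adjusted p = 0.849).

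In fibrinolysis, the dissolution of clots by plasmin, PLAT and PLAU were kept. PLAT encodes tissue plasminogen activator, and its probe had no usable spot on RFIneg 6, a value that the fit dropped. It ran from 1.12 over a median of 2.77 to 3.37 in RFIneg (n = 7), from 0.78 over 2.76 to 3.30 in RFIpl, and from 1.03 over 3.14 to 3.57 in RFIplR. PLAU encodes urokinase, and its largest difference was -0.40 for RFIneg minus RFIplR (SE 0.49, adjusted p = 0.999). Neither gene passed in either fit.

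The classical complement genes that were kept were C1QA, C1S, C2 and C4A. All 4 had differences below 0 for RFIneg minus RFIpl, and 3 of 4 for RFIplR minus RFIpl. Over all kept probes 49.0% and 51.5% of the differences were above 0. C4A had the smallest p of the 4. C4 is the protein that C1s cleaves and that builds the classical C3 convertase with C2. Its signal ran from 0.39 over a median of 2.33 to 3.52 in RFIneg, from 1.503 over 3.96 to 4.64 in RFIpl, and from 0.35 over 2.23 to 3.55 in RFIplR. The groups overlapped, though 5 of the 8 RFIpl arrays lay above the highest array of both other groups. RFIneg minus RFIpl was -1.11 (SE 0.53, adjusted p = 0.715) and RFIplR minus RFIpl -1.25 (SE 0.53, adjusted p = 0.490). With brightness as a block these were -1.11 (SE 0.33, adjusted p = 0.0418) and -1.02 (SE 0.33, adjusted p = 0.0486). Leaving out RFIpl 2 from the block fit gave -1.07 (adjusted p = 0.0696) and -0.98 (adjusted p = 0.0684), and brightness and slide as blocks gave -0.74 (adjusted p = 0.257) and -0.87 (adjusted p = 0.138). The other 2 kept C4A probes differed in the same direction without a block, by -1.25 (SE 0.44) and -1.18 (SE 0.73) for RFIneg minus RFIpl and by -1.37 (SE 0.44) and -0.80 (SE 0.73) for RFIplR minus RFIpl.

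C1S encodes the C1 protease that cleaves C4 and C2, and it was the brightest kept member of the classical group. It ran from 2.24 over a median of 3.42 to 4.66 in RFIneg, from 2.87 over 4.26 to 4.91 in RFIpl, and from 2.62 over 3.33 to 4.19 in RFIplR. RFIneg minus RFIpl was -0.63 (SE 0.35, adjusted p = 0.879) and RFIplR minus RFIpl -0.65 (SE 0.35, adjusted p = 0.721), and with brightness as a block the adjusted p values were 0.0611 and 0.121. C1QA, a chain of the recognition molecule C1q, differed from RFIpl by -0.46 in RFIneg and -0.15 in RFIplR (SE 0.35 each), and C2 by -0.0027 and 0.18 (SE 0.29 each). Among genes named only by description, C1QB differed from RFIpl by -0.55 and -0.83 (SE 0.57), C1QC by -0.50 and -0.56 (SE 0.47) and C1R by -0.43 and -0.36 (SE 0.23) in RFIneg and RFIplR, and none passed. The macrophage list, with 6 kept genes, had medians of 0.27, 0.51 and 0.04 in RFIneg, RFIpl and RFIplR with overlapping ranges, 0 genes called and 0 at an unadjusted p under 0.05.

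The genes of the C1 complex varied together from pig to pig. Over the 17 bright arrays C1QA correlated with C1QB at r = 0.98 (Spearman's rho 0.97), with C1QC at r = 0.99 (rho 0.98), and C1QB with C1QC at r = 0.99 (rho 0.98). C1R correlated with C1S at r = 0.94 (rho 0.94). For these 4 pairs the permutation p was 1e-05 for both measures, the smallest the 100000 permutations can give, and 1.75e-05 after adjustment over the 7 pairs. Without the 2 arrays farthest from the median of the first gene, r was between 0.90 and 0.99. The pairs were chosen for known partnership, and the arrays share batches and groups.

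Other partners followed each other less closely in value. C1S correlated with SERPING1, the inhibitor of C1s and C1r, at r = 0.66 (rho 0.56, adjusted permutation p = 0.00525 and 0.0247), which was 0.44 without the 2 farthest arrays. VWF correlated with the endothelial marker PECAM1 at r = 0.64 (rho 0.61, adjusted permutation p = 0.00657 and 0.0157). Without the 2 farthest arrays that r was 0.59. C3 and CFB, which form the alternative C3 convertase, gave r = 0.29 (rho 0.14, adjusted permutation p = 0.256 and 0.592). Within scan day 1, the 11 bright arrays gave r between 0.92 and 0.99 for the C1 pairs. The other pairs there gave 0.73 for C1S with SERPING1, 0.56 for VWF with PECAM1 (rho 0.40, permutation p = 0.0753 and 0.227) and 0.70 for C3 with CFB (rho 0.50, permutation p = 0.0137 and 0.121). Without the 2 farthest of those arrays r was 0.37 for C1S with SERPING1 and 0.0336 for VWF with PECAM1. Within scan day 1 the size of both thus depended on 2 arrays. For C3 with CFB r was 0.77 without its 2 farthest. Within the 7 dim arrays, exact tests of all pairings gave r = 0.58 for C1QA with C1QB, 0.78 for C1QA with C1QC, 0.95 for C1QB with C1QC and 0.40 for C1R with C1S. Of the 7 pairs C1QB with C1QC alone had an adjusted p under the threshold there by Pearson's r (0.025), and its rho of 0.82 had an adjusted p of 0.239. On the dim arrays the C1QA probe read 0.55 higher than on the bright arrays, while the C1QB probe read 1.91 lower. CSF1R was not found by the rule, so its pair with C1QB was not computed.

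**Figure D4:**
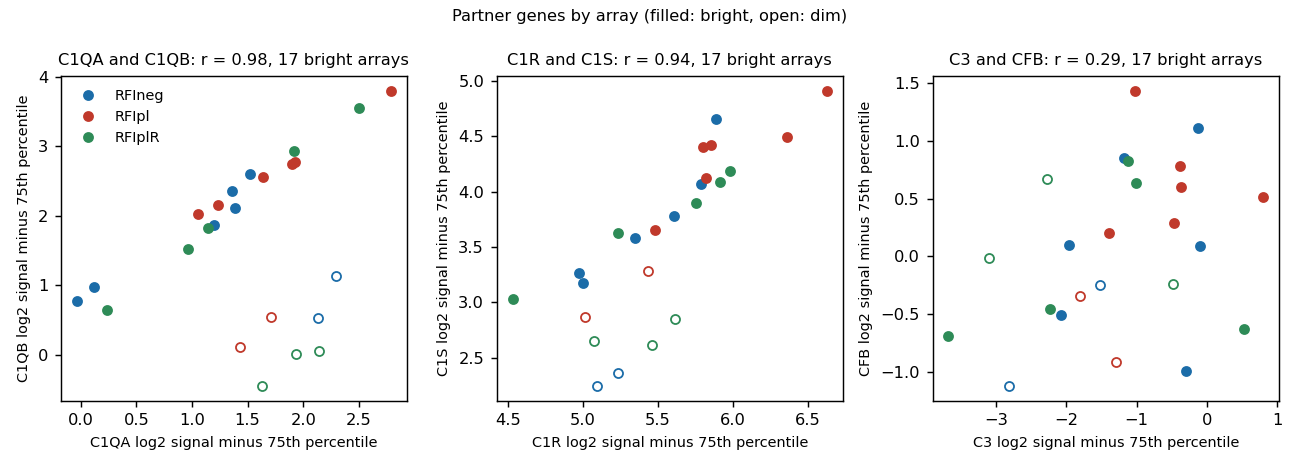
Log2 signal of C1QB against C1QA, C1S against C1R, and CFB against C3 on the 24 arrays, filled for bright and open for dim arrays, coloured by group. The bright arrays lie along a line for the C1 genes (r = 0.98 and 0.94) and scatter for C3 and CFB (r = 0.29), and the dim arrays lie off that line for C1QA and C1QB.

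C3, on which all complement routes converge, and CFB, the protease of the alternative route, had differences below 0 against RFIpl. C3 ran from -2.81 over a median of -1.35 to -0.09 in RFIneg, from -1.80 over -0.74 to 0.80 in RFIpl, and from -3.68 over -1.68 to 0.52 in RFIplR. RFIplR minus RFIpl was -0.93 (SE 0.53, adjusted p = 0.769), and the other 4 C3 probes gave -0.06 to -0.81. CFB, the brighter of both on this array, ran from -1.12 over -0.08 to 1.11 in RFIneg, from -0.91 over 0.40 to 1.43 in RFIpl, and from -0.69 over -0.13 to 0.82 in RFIplR, with differences from RFIpl of -0.41 and -0.31 (SE 0.35 each). CFD, named by description, was steady over all arrays (5.74 to 6.35 in RFIneg, 5.98 to 6.47 in RFIpl and 5.56 to 6.48 in RFIplR). CFP, the gene of properdin, differed between groups by at most 0.19.

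Of the 6 terminal components listed, C5, C7 and C9 were kept. C5, the precursor of the C5a peptide, ran from -3.52 over a median of -0.75 to -0.44 in RFIneg, from -2.55 over -1.62 to -0.52 in RFIpl, and from -2.56 over -1.05 to -0.60 in RFIplR. C7 joins C5b and C6 in the forming pore, and its probe cleared background clearly on 7 arrays of RFIpl, 2 of RFIneg and 3 of RFIplR. In the order RFIneg, RFIpl and RFIplR it ran from -7.34 over -5.42 to -3.10, from -5.86 over -3.75 to -2.78, and from -6.91 over -4.68 to -2.40. RFIneg minus RFIpl for C7 was -1.15 (SE 0.62, adjusted p = 0.842), and with the block -1.15 (SE 0.48, adjusted p = 0.153). The C7 probe was kept through RFIpl alone, so this difference is conditioned on RFIpl being high. C9, which completes the pore, differed by 0.58 between RFIneg and RFIplR (SE 0.45, adjusted p = 0.999). Another C9 probe, not kept, averaged -5.46, against -1.92 for the brightest.

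The 5 kept regulators protect host cells and limit C1. SERPING1 was the brightest of them. It ran from 1.501 over a median of 4.38 to 4.89 in RFIneg and from 1.44 over 4.36 to 4.66 in RFIpl. In RFIplR it ran from 1.27 over 4.10 to 4.83. The probe used read 2.94 higher on bright than on dim arrays. For the gene's other kept probes bright minus dim was -2.45 and -1.71. With brightness as a block the probe used gave 0.07 (SE 0.13) for RFIneg minus RFIpl and 0.00 (SE 0.14) for RFIplR minus RFIpl. CD59, which stops C9 from closing the pore, ran from -1.31 over -0.93 to 0.91 in RFIneg, from -2.19 over -1.16 to 0.34 in RFIpl, and from -1.58 over -0.80 to 0.71 in RFIplR. RFIneg minus RFIpl for CD59 was 0.65 (SE 0.43), and with the block its SE was 0.18 (adjusted p = 0.031). That call was lost with brightness and slide as blocks (0.75, adjusted p = 0.0616), within the bright arrays (0.54, adjusted p = 0.193), and in the block fit without RFIpl 1 and 2 (0.64, adjusted p = 0.0661) or RFIpl 7 and 8 (0.66, adjusted p = 0.055). CD46, CD55 and CLU differed between any pair of groups by at most 0.53 in size, and none passed in either fit. C5AR1, the receptor of C5a on myeloid cells, ran from -0.13 over 0.75 to 1.71 in RFIneg, from 0.245 over 1.003 to 2.11 in RFIpl, and from -0.08 over 0.65 to 1.80 in RFIplR. Its difference was -0.44 for RFIneg minus RFIpl (SE 0.30).

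Other genes of both pathways gave 0 calls in the 3 comparisons. At an unadjusted p under 0.05 the further complement genes had 0. The further coagulation genes had 1 for RFIneg minus RFIpl, 0 for RFIneg minus RFIplR and 2 for RFIplR minus RFIpl. The shares over all kept probes were 6.86%, 2.12% and 8.19% in that order. Of 24 further complement genes, 12 were on the array and 10 were kept, with median differences of -0.07 for RFIneg minus RFIpl, 0.11 for RFIneg minus RFIplR and -0.16 for RFIplR minus RFIpl. FCN2, a ficolin that starts the lectin route, differed by -1.15 for RFIneg minus RFIpl (SE 0.66, adjusted p = 0.894), and VSIG4, a macrophage receptor of C3 fragments, by -0.63 for RFIplR minus RFIpl (SE 0.38, adjusted p = 0.809). Of 32 further coagulation genes, 14 were on the array and 9 were kept, with medians of 0.01, -0.19 and 0.16. F2R, the main thrombin receptor, differed by -0.84 for RFIplR minus RFIpl (SE 0.30, adjusted p = 0.328). ANXA2, a cell-surface site of plasmin formation, differed by 0.55 for both RFIneg and RFIplR against RFIpl (SE 0.23, adjusted p = 0.557 and 0.443).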

How the data were processed

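Agilent scanner files of 24 arrays were used, with spot intensity (gProcessedSignal) as deposited by the authors. Per the file headers it came from Agilent's Feature Extraction, version 10.7.3.1, and the submitters' processing notes list R 2.10.0. The deposited table of log2 values, centred near 0 on each array, served as an alternative. Signals (floor 1) were logged (log2), and the 75th percentile of each array's non-control probes was subtracted. Non-uniform spots were left out. A probe was kept if well above background on at least 6 of 8 arrays of a group and missing on at most 6 arrays. Groups were compared with limma 3.58.1 in R 4.3.3 (lmFit and eBayes, moderated two-sided tests over all 24 arrays, Benjamini-Hochberg adjustment over 28601 probes, threshold 0.05). The fit was tried on simulated data with independent probes and the spread of the bright arrays. Those data had no split into bright and dim arrays, so they do not test the fit under that split. The number of arrays limits the precision. Correlations used two-sided permutation tests (Python 3.11.15). RefSeq symbols (Sscrofa11.1 names) named 7371 probes and deposited names 3577, while 32617 had none and 38 several. No genome build is given in the sources used here, so no coordinates are given.

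Genes with full values were the 5 with the smallest p in each comparison and the brightest of each role group. C1QA, C9 and PLAU, among the 5 for RFIneg minus RFIplR, are the exception and are given by their differences only. VWF, CD59, F2 and SERPINC1 were described after their values in the block fit were seen. The members and lists were chosen with earlier results of these data known. Samples were grouped by the labels. Alternatives concerned brightness, slide, scan day, background, scaling, filter, variance model, array weights, probe choice and left-out arrays.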

Additional observations from a re-analysis of the deposited data

Results flagged for a closer look

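In groups of 7 or 8 arrays, the highest or lowest array was compared with its nearest neighbour relative to the group's range, for 29 members in 3 groups. Of these 87 groups, 3 had an array beyond Dixon's 95% critical value, which chance alone passes in about 1 group of 20. CD55 was highest in RFIpl 2 at 0.61, with the next array at -0.56, and RFIpl 2 was also the array rich in skeletal muscle genes. CD46 was highest in RFIplR 4 at -2.37, with the next array at -3.74, and C9 was lowest in RFIplR 6 at -3.97, with the next array at -2.42. RFIplR 4 and RFIplR 6 were dim arrays. The CD46 probe on RFIplR 4 and the C9 probe on RFIplR 6 were not well above background.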

How the results depend on the processing

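Counts of members called are given in the order RFIneg minus RFIpl, RFIplR minus RFIpl and any group difference, against 0, 0 and 0 without a block. Shares of all kept probes called follow in parentheses. The counts were 6, 6 and 7 with brightness as a block (6.63%, 10.4% and 9.03%), 1, 2 and 1 within the bright arrays (1.04%, 3.34% and 1.7%), and 9, 8 and 8 with array weights (10.3%, 9.64% and 12.4%). They were 0, 2 and 1 with scan day as a block (0.164%, 0.902% and 0.423%), 0, 5 and 2 with brightness and slide as blocks (1.45%, 5.92% and 3.4%), and 0, 1 and 0 after quantile normalization (0.175%, 0.395% and 0.283%). Among alternatives chosen after seeing the data, the brightness block gave 2, 4 and 2 without RFIpl 1 and 2 (1.92%, 6.64% and 4.13%), 1, 4 and 2 without RFIpl 7 and 8, the arrays high in keratinocyte genes (3.09%, 6.23% and 4.16%), and 3, 7 and 6 without RFIpl 2 (5.15%, 10.9% and 7.96%). Leaving out each array in turn gave 0 to 1, 0 to 2 and 0 to 1. RFIneg minus RFIplR had 0 calls under every alternative run. Over all kept probes, leaving out an array moved the calls from 59 to between 1 and 284 (RFIneg minus RFIpl) and from 85 to between 22 and 296 (RFIplR minus RFIpl), both highest without RFIpl 3.

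No pairing by replicate number was seen: 12 of 24 same-numbered pairs correlated above 0.1, and 0 arrays correlated best with their own number. These correlations went with brightness. They ran from 0.49 to 0.61 for number 3, whose arrays were all bright, and from -0.82 to 0.64 for number 5, where RFIpl 5 was dim. The check therefore cannot exclude a pairing. With the replicate number as a block, 0 members were called in each comparison and for any group difference.

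Of the 19 gene differences followed through the alternatives, those that reversed, all without a call, were C1QA for RFIneg minus RFIplR within the dim arrays (0.31), scan day 1 (0.0563) and scan day 2 (0.16), C9 in that comparison with normexp (-0.11) and within scan day 2 (-0.18), TFPI in it with normexp (-0.27), and F5 (-0.12) and VWF (-0.81) for RFIneg minus RFIpl within scan day 2. Within scan day 2 the RFIneg arrays were all dim, while RFIpl 4, RFIpl 7 and RFIplR 8 were bright, so groups were compared there at unequal brightness. The cause of the reversals was not tested. Over all 29 members and 3 comparisons, the brightness block turned the sign of 13 of 87 differences, 9 of them for RFIneg minus RFIplR, and 0 of the 13 were called. The median difference of the members stayed between -0.25 and 0.17 over the alternatives and comparisons. Signal over background limits C6, C8A, C8B, F9, FGG, PROC and PLG, and KLKB1 was not among the 25 members in the deposited table of processed values.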
